A study of Mus musculus with 23 samples.

Results

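The comparison described here set macrophages sorted from mouse neurofibroma against macrophages sorted from normal nerve tissue, over all genes on the array. Its members were 7 macrophage arrays out of the 23 Affymetrix Mouse Gene 2.0 ST arrays in the series. Their labels name the second batch and either neurofibroma at 7 months (4 arrays) or wild type at 1 month (3 arrays). The neurofibroma macrophages came from tumours of 7-month-old Nf1fl/fl;DhhCre mice. In these mice Cre under the desert hedgehog (Dhh) promoter deletes Nf1, a negative regulator of Ras, in cells of the Schwann lineage. The wild-type macrophages came from dorsal root ganglia and attached nerves of 1-month-old mice that the methods give as Nf1fl/fl without Cre, pooled over several mice before each sort. The labels give the macrophages of both groups as Nf1+/+, so the groups differed in the surrounding tissue and in age, not in the Nf1 genotype of the macrophages. The strain is labelled as a mixture of C57BL/6 and BALB/c in the labels and as C57Bl/6 in the methods. All cells were gated on the macrophage surface antigen encoded by Adgre1 and on CD11b, encoded by Itgam, after the tissue had been digested for hours in collagenase and dispase. The neurofibroma arrays are called A, B, C and D here, in the order of their label numbers, and the wild-type arrays 4, 5 and 6 as in the labels. Values of single arrays are given in these orders.

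Macrophages of peripheral nerve clear debris, present antigen and signal to Schwann cells and blood vessels. Long-lived resident macrophages of many tissues carry scavenger and hyaluronan receptors such as Cd163, Folr2 and Lyve1, while cells recently derived from blood monocytes carry Ccr2, the receptor for the chemokine Ccl2. Interleukin 4 and interleukin 13 act through Stat6 to induce an alternatively activated programme with Retnla, Chil3, Mgl2 and Ccl24. Interferons and microbial ligands induce a different set, with Fc receptors, guanylate-binding and antiviral genes, and interleukin 1. In plexiform neurofibroma, a benign tumour of the nerve sheath, macrophages are among the most abundant cells.

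The deposited log2 values lay on 2 levels. The array medians were 2.92 to 2.97 on the sorted-cell arrays from 7 months and 3.74 to 3.86 on those from 1 month, and the universal control RNA, hybridised once at each level, had medians of 3.04 and 3.88. Tumour, age and array level therefore coincide in the macrophages. The universal control pair, which has no replicate, bears on the array level alone, and tumour and age cannot be told apart in any of the fits. Values called corrected below had the 2 array levels aligned by ComBat with this pair as the only RNA present on both. The limma test on corrected values treats that alignment as known, so its p-values leave out the error of the control pair. Counts over all genes are therefore given for 3 rules, namely a fold change above 2 on corrected values at an adjusted p below 0.05, the same on corrected, median-centred and quantile-normalized values alike (called on 3 scalings), and the same in a fit that carries the control pair and its error. Lists of genes are counted by the first and second rule, and by the last one only where it called any member. Called on corrected values only means called by the first rule and not by the second. Such a gene can still have passed on median-centred or on quantile-normalized values, or in the fit with the control pair. The labels do not say that the 4 neurofibroma arrays came from separate mice. The p-values rest on a spread between arrays that limma pooled over the 3 macrophage groups of the series, and a gene's neurofibroma arrays can be more scattered than that. Wild-type replicates 5 and 6 stood apart by transcripts of the seminal vesicle, and counts without them are given below for all genes and for most lists described. They are not given for the macrophage identity and monocyte-derived lists.

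Of 22180 genes tested, 175 (0.789%) were higher and 201 (0.906%) were lower in neurofibroma macrophages than in wild-type macrophages on 3 scalings, or 1.7% in both directions together. On corrected values alone 731 (3.3%) were higher and 649 (2.93%) were lower, or 6.22% together, and with the control pair in the fit 36 (0.162%) were higher and 10 (0.0451%) were lower. All 46 of the last set were also called on corrected values. Without wild-type replicates 5 and 6 the rule of 3 scalings called 174 genes higher and 133 lower. Groups without overlap were common, with 4014 genes in the higher and 5175 in the lower direction, so separation alone does not set a gene apart. The median log2 fold change over all genes was -0.07 on corrected values, -0.04 on quantile-normalized values and 0.22 on median-centred values. The macrophage difference of each called gene, as deposited, was set beside that of the control RNA, with each difference taken from its own median over genes. The shift of the control pair was larger than that of the macrophages for 331 of 731 higher and 192 of 649 lower calls on corrected values. It was larger for 2 of 175 higher and 0 of 201 lower calls on 3 scalings, and for 27 of 36 and 5 of 10 calls with the control pair in the fit. The rule of 3 scalings itself asks for a fold change above 2 on median-centred deposited values. Its low counts here follow largely from that and do not show that these calls are free of array offsets. Of these calls, 8 higher and 5 lower ones were also called with the control pair in the fit.

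**Figure D1:**
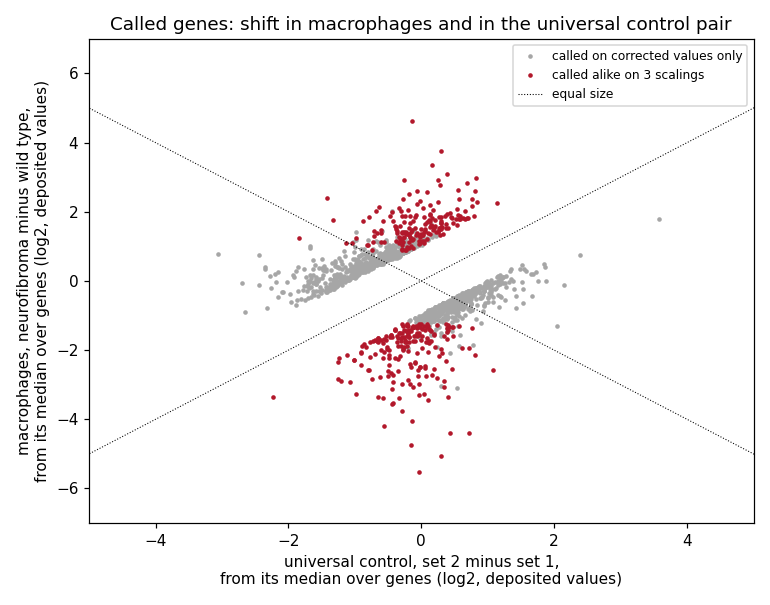
Shift of each called gene in macrophages (vertical axis, neurofibroma minus wild type) and in the universal control RNA (horizontal axis, array set of the neurofibroma arrays minus that of the wild-type arrays), both as log2 differences of deposited values from their median over genes. Grey points, called on corrected values but not on 3 scalings, lie to either side of the vertical midline. Red points, called on 3 scalings, lie in the upper and lower wedges where the macrophage shift is the larger one, apart from 2 genes. The position of the red points follows largely from the rule, which asks for a large shift on median-centred deposited values.

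Csn1s1, which codes for a milk casein, shows what the first kind of gene looks like. Its deposited values averaged 1.82 in neurofibroma macrophages and 1.90 in wild-type macrophages, while the control RNA gave 2.98 on the array of the neurofibroma set and 5.23 on that of the wild-type set. The correction turned this into a log2 fold change of 2.09. Ces1d, Skint9, 2900055J20Rik, Gm2663, Cdhr2, Agtr2, Krt71, Pla2g1b, Acaa1a, Mpped2 and Slc15a1 were called in the same way, with a larger shift in the control pair than in the macrophages. These 12 are among the 25 genes with the largest changes of the fit that carries the control pair, and none of them was called on 3 scalings. The other 13 genes of that fit were called on 3 scalings too, and they open the account below.

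Among these 13 genes the largest decrease was in Retnla (chr16:48842609-48844461, GRCm38.p6), which codes for a secreted protein of the alternatively activated programme. In neurofibroma macrophages Retnla measured 4.36, 5.61, 6.04 and 6.61, and in wild-type macrophages 10.86, 10.66 and 10.69. Every neurofibroma array was far below every wild-type array, and the neurofibroma arrays were themselves spread widely. Retnla thus differed by -5.08 ± 0.43 on the log2 scale (SE, adjusted p = 6.38e-06). Mgl2 (chr11:70130125-70137542) codes for a lectin for galactose and N-acetylgalactosamine. Mgl2 had corrected log2 levels of 2.93, 2.90, 3.42 and 3.36 in neurofibroma macrophages and 6.02, 5.65 and 5.94 in wild-type macrophages. The groups did not overlap and the spread within each was small. This gave Mgl2 a log2 fold change of -2.72 ± 0.19 (SE, adjusted p = 1.68e-06). Ccl24 (chr5:135569935-135573123), also called eotaxin 2, attracts eosinophils. For Ccl24 the neurofibroma arrays gave 4.09, 4.32, 4.49 and 5.33 and the wild-type arrays 7.57, 7.21 and 6.90. For Ccl24 the fitted difference was -2.67 ± 0.28 (log2, SE, adjusted p = 2.95e-05). Cpne8, a calcium-dependent phospholipid-binding copine, and S100a6, a small calcium-binding protein, were also lower. Cpne8 was at 3.64, 3.11, 3.42 and 3.98 in neurofibroma macrophages, against 6.96, 6.58 and 6.65 in wild-type macrophages. In neurofibroma macrophages S100a6 measured 9.69, 9.91, 10.01 and 9.96, and in wild-type macrophages 11.56, 11.55 and 11.38. Cpne8 had a log2 fold change of -3.20 ± 0.20 (SE, adjusted p = 7.87e-07). S100a6 thus differed by -1.61 ± 0.12 on the log2 scale (SE, adjusted p = 2.5e-06).

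The promoter of Retnla is shown because Stat6-type elements, TTC and GAA with any 4 bases between them, are background knowledge for genes of the interleukin 4 programme. The motif was chosen after the values were seen, and it reads the same on both strands. RefSeq (GRCm38.p6) gives the 300 bases from 250 before the start of the gene to 50 after it as chr16:48842359-48842658 on the plus strand. The capitals mark the match, whose first base is 145 bases upstream of the start.
Retnla promoter: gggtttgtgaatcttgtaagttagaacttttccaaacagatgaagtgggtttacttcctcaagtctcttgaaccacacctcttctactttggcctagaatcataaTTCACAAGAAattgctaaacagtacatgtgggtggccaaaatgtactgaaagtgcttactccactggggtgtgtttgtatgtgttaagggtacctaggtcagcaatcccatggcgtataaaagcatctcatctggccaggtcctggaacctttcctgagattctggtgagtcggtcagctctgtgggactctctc
The letters of this motif occur in 6.95% of the 32851 promoters in the table. Among the 29 measured members of the list of resident and alternatively activated genes, 22 had a promoter in the table and 3 of these held the motif. The share over all genes of the table was 8.01%, and a match is a description of the letters only.

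**Figure D2:**
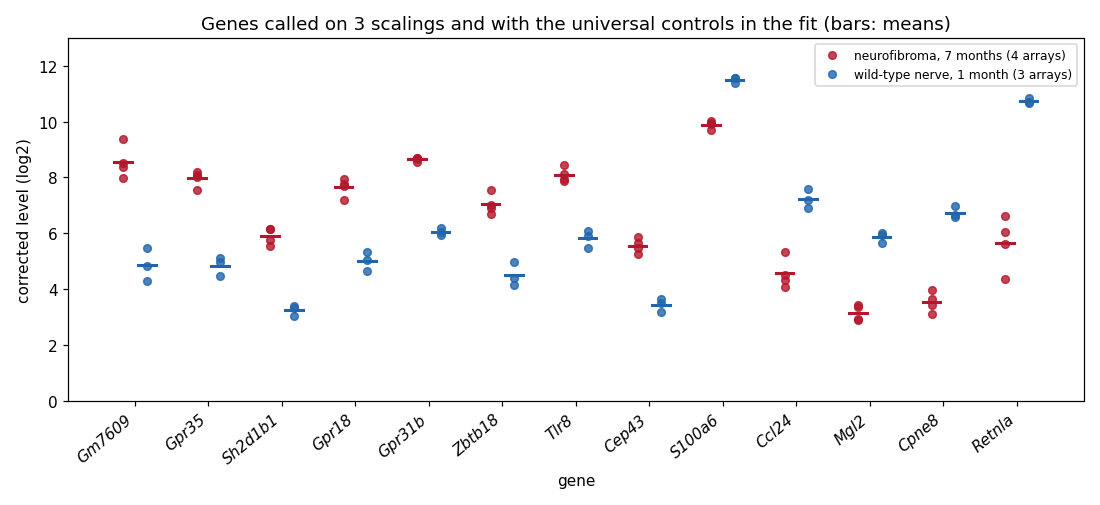
Corrected log2 level of the 13 genes called on 3 scalings and with the universal control pair in the fit, with neurofibroma arrays (red, left) and wild-type arrays (blue, right) as points and the group means as bars. The groups overlap for none of the 13 genes, beside 4014 higher and 5175 lower genes without overlap among all 22180. Gm7609 and Gpr35 stand at the high end of the differences and Retnla at the low end.

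The wider list of resident and alternatively activated macrophage genes held further lower calls and no higher one. Of 29 measured members 0 were higher and 13 were lower on 3 scalings, beside 0.906% of all genes. On corrected values 0 were higher and 17 were lower, beside 3.3% and 2.93% of all genes, and with the control pair in the fit 3 were lower. The list's median log2 fold change was -1.29 on corrected, -0.93 on median-centred and -1.24 on quantile-normalized values. Its members were chosen with earlier results of these data known. Lyve1, the hyaluronan receptor of perivascular and other resident macrophages, was among the clearest. Lyve1 had corrected log2 levels of 4.38, 4.38, 4.56 and 5.30 in neurofibroma macrophages and 7.49, 7.81 and 7.53 in wild-type macrophages. This gave Lyve1 a log2 fold change of -2.95 ± 0.23 (SE, adjusted p = 3.44e-06). Cd163, the scavenger receptor for haemoglobin bound to haptoglobin, followed the same pattern. For Cd163 the neurofibroma arrays gave 4.69, 4.14, 4.14 and 5.06 and the wild-type arrays 7.40, 6.54 and 6.50. For Cd163 the fitted difference was -2.31 ± 0.24 (log2, SE, adjusted p = 2.77e-05).

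Cbr2, a carbonyl reductase of resident macrophages, had a larger difference than Cd163. Cbr2 was at 6.09, 6.09, 6.62 and 7.06 in neurofibroma macrophages, against 9.22, 9.47 and 9.40 in wild-type macrophages. Cbr2 had a log2 fold change of -2.90 ± 0.22 (SE, adjusted p = 2.56e-06). Folr2, the beta folate receptor, and Igf1, a growth factor, differed by less. In neurofibroma macrophages Folr2 measured 7.06, 7.39, 7.52 and 8.08, and in wild-type macrophages 8.83, 9.18 and 9.22. Igf1 had corrected log2 levels of 6.07, 7.12, 6.88 and 6.79 in neurofibroma macrophages and 8.87, 8.01 and 8.17 in wild-type macrophages. No neurofibroma array reached the lowest wild-type array for either gene. Folr2 thus differed by -1.57 ± 0.21 on the log2 scale (SE, adjusted p = 0.000138). This gave Igf1 a log2 fold change of -1.64 ± 0.25 (SE, adjusted p = 0.000328). The remaining members called on 3 scalings were Chil3, a chitinase-like protein (-2.73), Cd209d, a lectin of the DC-SIGN family (-2.24), Fcgrt, the neonatal Fc receptor (-1.77), F13a1, a subunit of coagulation factor XIII (-1.59), and Fcna, ficolin A (-1.29), the figures being log2 fold changes. Fcna alone of the 13 had overlapping groups, with its highest neurofibroma array at 5.52 and its lowest wild-type array at 5.47.

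Other members were not called. Mrc1, the mannose receptor often used as a marker of alternative activation, was at 9.25, 8.87, 9.14 and 9.22 in neurofibroma macrophages and at 9.48, 9.06 and 9.23 in wild-type macrophages. Its log2 fold change was -0.14 ± 0.14 (SE). Arg1, arginase 1, was at 5.21, 5.21, 5.41 and 7.20 in neurofibroma macrophages and at 3.95, 4.22 and 4.97 in wild-type macrophages. That difference of 1.38 ± 0.53 ran opposite to Retnla and did not pass the test (adjusted p = 0.058), and 1 neurofibroma array stood apart from the other 3. Timd4, a phosphatidylserine receptor of resident macrophages, was called on corrected values only, with 8.31, 7.48, 5.75 and 6.67 in neurofibroma macrophages and 8.78, 8.90 and 8.93 in wild-type macrophages.

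**Figure D3:**
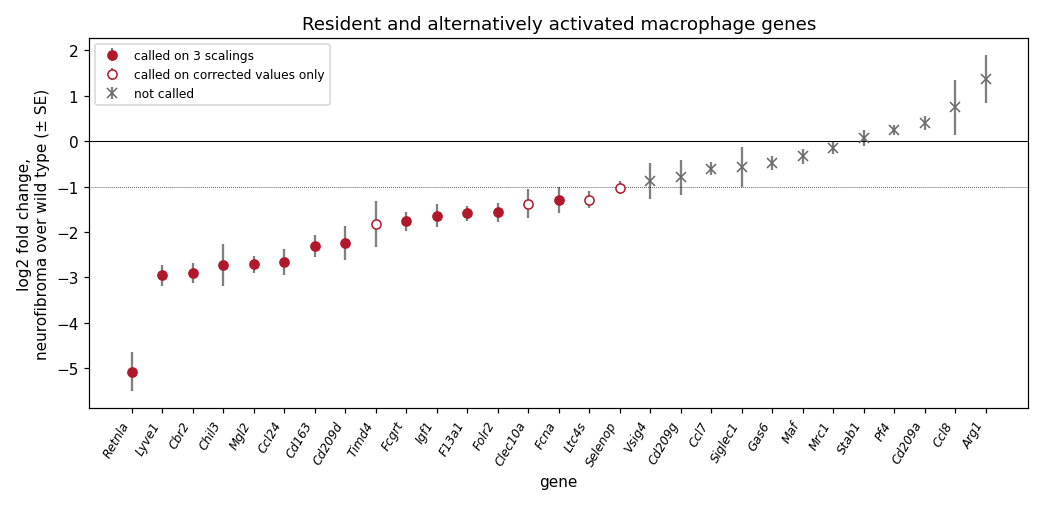
Log2 fold change, neurofibroma over wild type, with its SE, for the 29 measured resident and alternatively activated macrophage genes on corrected values. Filled circles mark calls on 3 scalings, open circles calls on corrected values but not on 3 scalings, and crosses genes not called. Retnla stands lowest at -5.08, and Arg1 highest at 1.38.

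Of the 8 higher genes of the strictest set, 5 code for receptors or an adaptor of receptors. Gpr35 (chr1:92948052-92986391) codes for a G protein-coupled receptor that responds to kynurenic acid. For Gpr35 the neurofibroma arrays gave 8.10, 8.01, 8.19 and 7.54 and the wild-type arrays 4.46, 4.96 and 5.10. For Gpr35 the fitted difference was 3.12 ± 0.30 (log2, SE, adjusted p = 1.52e-05). Gpr18 and Gpr31b are further G protein-coupled receptors, Gpr31b being the mouse counterpart of a human receptor for the lipid 12-HETE. Gpr18 was at 7.95, 7.78, 7.18 and 7.69 in neurofibroma macrophages, against 4.66, 5.05 and 5.32 in wild-type macrophages. In neurofibroma macrophages Gpr31b measured 8.70, 8.66, 8.68 and 8.55, and in wild-type macrophages 6.20, 5.93 and 6.04. The 4 neurofibroma arrays lay close together for Gpr31b and spread more for Gpr18, and the groups overlapped for neither. Gpr18 had a log2 fold change of 2.64 ± 0.24 (SE, adjusted p = 1.14e-05). Gpr31b thus differed by 2.59 ± 0.21 on the log2 scale (SE, adjusted p = 4.39e-06). Sh2d1b1 codes for an adaptor of the SLAM family of receptors. Sh2d1b1 had corrected log2 levels of 6.17, 5.77, 6.17 and 5.56 in neurofibroma macrophages and 3.02, 3.32 and 3.38 in wild-type macrophages. This gave Sh2d1b1 a log2 fold change of 2.68 ± 0.22 (SE, adjusted p = 5.22e-06). Tlr8 (chrX:167241123-167264329) codes for an endosomal Toll-like receptor, whose human counterpart senses single-stranded RNA. For Tlr8 the neurofibroma arrays gave 8.44, 7.93, 8.11 and 7.86 and the wild-type arrays 5.89, 5.48 and 6.06. For Tlr8 the fitted difference was 2.27 ± 0.22 (log2, SE, adjusted p = 1.62e-05).

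The last 3 genes of the set are not receptors, and Gm7609 among them had the largest difference of the 8. Zbtb18 codes for a zinc finger repressor of transcription and Cep43 for a centrosomal protein. Zbtb18 was at 7.55, 6.68, 6.92 and 7.01 in neurofibroma macrophages, against 4.15, 4.97 and 4.39 in wild-type macrophages. In neurofibroma macrophages Cep43 measured 5.87, 5.46, 5.24 and 5.65, and in wild-type macrophages 3.50, 3.65 and 3.17. Neither gene's groups overlapped. Zbtb18 had a log2 fold change of 2.54 ± 0.24 (SE, adjusted p = 1.41e-05). Cep43 thus differed by 2.12 ± 0.20 on the log2 scale (SE, adjusted p = 1.52e-05). Gm7609 is a predicted gene with no role known here, and probes of a predicted gene can share sequence with close copies. Gm7609 had corrected log2 levels of 8.39, 9.38, 8.51 and 7.99 in neurofibroma macrophages and 5.45, 4.83 and 4.28 in wild-type macrophages. This gave Gm7609 a log2 fold change of 3.71 ± 0.36 (SE, adjusted p = 1.52e-05).

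Fc receptors and complement genes gave 5 higher and 0 lower calls among 23 measured members on 3 scalings, beside 0.789% of all genes called higher. The entry for complement C3 was matched to the symbol Olfr48. C3 itself is therefore not among the 23, and Olfr48 is counted in its place. On corrected values 7 were higher and 2 were lower, beside 3.3% and 2.93% of all genes. The 5 higher calls became 3 without wild-type replicate 5. Fcgr4 (chr1:171018926-171029761), the activating receptor for the IgG2a and IgG2b antibodies, had the largest increase of all genes called on 3 scalings. For Fcgr4 the neurofibroma arrays gave 10.56, 10.34, 10.15 and 8.97 and the wild-type arrays 4.26, 5.32 and 6.13. The groups were far apart, with array D the lowest of the tumour arrays. For Fcgr4 the fitted difference was 4.77 ± 0.55 (log2, SE, adjusted p = 5.71e-05). In the fit with the control pair the log2 fold change was 4.73 ± 1.04 (SE) and the adjusted p was 0.07. Fcgr3, another activating Fc receptor, was higher by 1.18, and Fcgr1, the high-affinity receptor, by 1.38 on corrected values only. Their shared signalling chain Fcer1g was high in both groups, at 11.41 to 11.54 in neurofibroma macrophages and 11.22 to 11.33 in wild-type macrophages, and was not called.

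Itgam, the gene for CD11b on which the cells were gated, was itself higher. Itgam was at 9.43, 9.29, 9.09 and 8.77 in neurofibroma macrophages, against 7.28, 6.35 and 7.07 in wild-type macrophages. Itgam had a log2 fold change of 2.25 ± 0.25 (SE, adjusted p = 3.67e-05). Itgax, which codes for CD11c, and C4b, the complement component C4, were called too. In neurofibroma macrophages Itgax measured 5.38, 6.31, 5.68 and 5.54, and in wild-type macrophages 3.85, 4.64 and 3.82. C4b had corrected log2 levels of 8.52, 8.30, 8.67 and 8.28 in neurofibroma macrophages and 6.56, 5.54 and 6.35 in wild-type macrophages. For C4b the difference was 2.29, beside 2.32 for the Schwann cells of the same tissues. C1qb, a chain of the first complement component, was higher by 1.07 on corrected values only.

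Klrb1b, Clec2i and Klra2, of receptor families best known from natural killer cells, were named because their values were high and stand for no list. Klrb1b codes for an inhibitory receptor of the NKR-P1 family, and Clec2i for a lectin of the family to which NKR-P1 ligands belong. For Klrb1b the neurofibroma arrays gave 6.98, 8.78, 7.67 and 8.00 and the wild-type arrays 3.94, 3.73 and 5.52. Clec2i was at 7.26, 7.13, 6.70 and 7.20 in neurofibroma macrophages, against 5.04, 4.86 and 4.98 in wild-type macrophages. Both were higher in every neurofibroma array than in any wild-type array. Klrb1b thus differed by 3.46 ± 0.52 on the log2 scale (SE, adjusted p = 0.00033). This gave Clec2i a log2 fold change of 2.11 ± 0.20 (SE, adjusted p = 1.35e-05). Klra2, of the Ly49 family, was higher by 2.09. These families hold close copies, among which probes can be shared. The 19 measured markers of T cells and NK cells gave 0 higher and 1 lower call on 3 scalings, beside 0.789% and 0.906% of all genes, and 0 and 3 on corrected values. The 1 lower call was lost without wild-type replicate 6 and without replicates 5 and 6 together. The mean corrected level of these markers was 3.44 to 3.46 in neurofibroma macrophages and 3.59 to 3.86 in wild-type macrophages. Cd3e, a chain of the T cell receptor complex, was at 2.16 to 2.27 in neurofibroma macrophages and 3.25 to 3.54 in wild-type macrophages.

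Checkpoint and costimulatory genes gave 2 higher and 0 lower calls among 22 measured on 3 scalings, beside 0.789% and 0.906% of all genes. On corrected values the counts were 6 and 0, beside 3.3% and 2.93%. The higher count was 1 without wild-type replicate 4, and 3 without replicate 5, without array D or without replicates 5 and 6 together. Havcr2, which codes for the inhibitory receptor TIM-3, was the first of them. In neurofibroma macrophages Havcr2 measured 8.11, 7.47, 7.91 and 6.93, and in wild-type macrophages 4.71, 5.52 and 4.65. For Havcr2 the fitted difference was 2.64 ± 0.33 (log2, SE, adjusted p = 8.68e-05). Il2ra, which codes for CD25 of the high-affinity receptor for interleukin 2, was the other. Il2ra had corrected log2 levels of 8.27, 7.92, 8.00 and 7.27 in neurofibroma macrophages and 4.56, 6.12 and 5.34 in wild-type macrophages. Il2ra had a log2 fold change of 2.53 ± 0.59 (SE, adjusted p = 0.00518). Cd86, the ligand of Cd28 on T cells, was higher by 1.78 ± 0.13 (SE) on corrected values and was not called on all 3 scalings. MHC class II presentation genes gave 0 higher calls among 15 measured, and H2-DMb2 was the 1 lower call on 3 scalings (log2 fold change -1.50). That call was lost without wild-type replicates 5 and 6. On corrected values 3 of these genes were lower.

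Toll-like receptors and their adaptors gave Tlr8 as the 1 call among 25 measured on 3 scalings and with the control pair in the fit, where 0.789% and 0.162% of all genes were called higher. On corrected values 5 were higher and 0 lower, beside 3.3% and 2.93% of all genes. The count on 3 scalings was 2 without wild-type replicate 6, and 1 without replicates 5 and 6 together. Tlr2, a receptor for bacterial lipoproteins, was at 8.66, 8.86, 8.95 and 8.94 in neurofibroma macrophages and at 9.25, 8.75 and 8.96 in wild-type macrophages. Tlr9, which senses DNA, had a log2 fold change of 0.96 and missed the fold threshold. Cd14, the coreceptor for lipopolysaccharide, was among the genes called on corrected values only, at 12.27 to 12.61 in neurofibroma macrophages and 10.95 to 11.17 in wild-type macrophages.

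The list of inflammasome, NOD-like receptor and interleukin 1 genes gave 2 higher and 0 lower calls among 27 measured on 3 scalings, beside 0.789% and 0.906% of all genes. On corrected values 4 were higher and 2 were lower, beside 3.3% and 2.93%. The higher count moved between 1 without wild-type replicate 4 and 4 without replicate 5, replicate 6, array B or array C. It was 3 without array A or array D, and without replicates 5 and 6 together the counts were 5 and 1. Nlrp3 codes for the sensor of the inflammasome that cleaves pro-interleukin 1, and Il1b for interleukin 1 beta. For Nlrp3 the neurofibroma arrays gave 8.38, 8.32, 8.49 and 8.25 and the wild-type arrays 7.05, 7.04 and 6.88. Il1b was at 11.87, 11.64, 11.72 and 11.49 in neurofibroma macrophages, against 9.56, 10.65 and 10.69 in wild-type macrophages. Wild-type replicate 4 was the low one for Il1b, below the other wild-type arrays. Nlrp3 thus differed by 1.37 ± 0.14 on the log2 scale (SE, adjusted p = 2.38e-05). This gave Il1b a log2 fold change of 1.38 ± 0.28 (SE, adjusted p = 0.00229). Casp1, the caspase that processes interleukin 1 beta, was not called (log2 fold change 0.37). Il33, an alarmin of stromal cells, was lower by 2.59 on corrected values only.

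Genes induced by type I interferon gave 1 higher and 0 lower calls among 42 measured on 3 scalings, beside 0.789% and 0.906% of all genes, and 7 higher and 2 lower calls on corrected values, beside 3.3% and 2.93%. The 1 call on 3 scalings was Bst2, or tetherin, which holds budding viruses at the cell surface. The list gave 0 calls without wild-type replicate 4, replicate 6, array A, array B or replicates 5 and 6 together, and 2 without replicate 5 or array D. In neurofibroma macrophages Bst2 measured 10.76, 10.88, 9.84 and 10.55, and in wild-type macrophages 8.64, 8.86 and 8.59. For Bst2 the fitted difference was 1.81 ± 0.32 (log2, SE, adjusted p = 0.00103). Oas1g, an oligoadenylate synthetase of a family with many close copies, had the largest difference of the list and was called on corrected values only. Oas1g had corrected log2 levels of 10.19, 10.28, 10.09 and 9.31 in neurofibroma macrophages and 7.17, 7.66 and 7.33 in wild-type macrophages. Zbp1, Ifi204, Dhx58, Herc6 and Stat2 were higher as well by that rule, while Ifit1 and Ifit3b were lower by it. The direction of Ifi204 turned on quantile-normalized values, where its log2 fold change was -0.27 beside 1.46 on corrected values. The list's median log2 fold change was 0.44 on corrected, 0.50 on median-centred and 0.04 on quantile-normalized values. Irf7, the regulator of late interferon genes, was at 9.48, 9.39, 9.25 and 8.12 in neurofibroma macrophages and at 7.49, 8.90 and 8.01 in wild-type macrophages, with overlapping groups. Ifi202b, of the interferon-inducible p200 family, went the other way. For Ifi202b the neurofibroma arrays gave 3.49, 3.99, 4.25 and 3.74 and the wild-type arrays 7.05, 7.22 and 7.10. Ifi202b had a log2 fold change of -3.25 ± 0.21 (SE, adjusted p = 7.87e-07).

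The interferon-stimulated response element, GAAA and GAAA with any 2 bases between them on either strand, was looked for in the promoters of these genes, since it is the site that interferon-activated factors bind. It occurred in 17 of the 39 promoters of the list (43.6%) and in 3.44% of all promoters in the table. Among promoters of genes called on 3 scalings it occurred in 6.79% of those that were higher and in 3.83% of those that were lower. Promoters of 3 higher genes that hold it are shown, with the matches in capitals, from 250 bases before to 50 after the start in RefSeq (GRCm38.p6). Those of Fcgr4 (chr1:171018676-171018975, plus strand) and Gpr18 (chr14:121915839-121916138, minus strand) stand for calls on 3 scalings, and that of Oas1g (chr5:120887564-120887863, minus strand) for the interferon list.
Fcgr4 promoter: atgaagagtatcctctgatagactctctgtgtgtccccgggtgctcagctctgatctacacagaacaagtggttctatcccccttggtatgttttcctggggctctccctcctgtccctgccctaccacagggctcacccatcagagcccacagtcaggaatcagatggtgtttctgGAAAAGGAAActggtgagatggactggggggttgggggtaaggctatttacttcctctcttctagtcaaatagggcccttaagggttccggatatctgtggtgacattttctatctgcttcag
Gpr18 promoter: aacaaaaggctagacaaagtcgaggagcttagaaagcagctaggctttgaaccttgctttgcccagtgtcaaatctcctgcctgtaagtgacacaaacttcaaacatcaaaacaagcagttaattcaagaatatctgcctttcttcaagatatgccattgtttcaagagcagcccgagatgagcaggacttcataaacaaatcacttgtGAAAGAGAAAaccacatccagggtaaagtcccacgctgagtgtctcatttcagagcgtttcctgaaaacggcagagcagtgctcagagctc
Oas1g promoter: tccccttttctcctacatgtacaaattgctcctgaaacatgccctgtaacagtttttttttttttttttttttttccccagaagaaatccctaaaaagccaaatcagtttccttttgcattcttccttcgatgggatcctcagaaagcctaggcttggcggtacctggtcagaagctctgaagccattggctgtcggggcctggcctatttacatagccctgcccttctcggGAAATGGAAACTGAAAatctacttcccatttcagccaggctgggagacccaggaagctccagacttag
In Fcgr4 the match begins 73 bases and in Gpr18 41 bases upstream of the start. Oas1g has 2 overlapping matches, which begin 18 and 12 bases upstream. Whether a factor was bound at any of them was not measured.

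Interferons, their receptors and JAK-STAT genes gave 2 higher and 1 lower call among 19 measured on 3 scalings, beside 0.789% and 0.906% of all genes, and 5 and 1 on corrected values, beside 3.3% and 2.93%. Leaving out wild-type replicate 4, replicate 6, array A, array B or array C gave 1 higher call, and leaving out replicate 5, alone or with replicate 6, gave 3. Ifnb1, interferon beta, was the lower one. Ifnb1 was at 7.53, 8.21, 9.00 and 7.96 in neurofibroma macrophages, against 10.34, 10.72 and 10.79 in wild-type macrophages. Ifnb1 thus differed by -2.44 ± 0.27 on the log2 scale (SE, adjusted p = 4.08e-05). Ifngr1, the ligand-binding chain of the interferon gamma receptor, was higher. In neurofibroma macrophages Ifngr1 measured 8.45, 8.15, 8.16 and 8.31, and in wild-type macrophages 6.83, 7.01 and 7.23. This gave Ifngr1 a log2 fold change of 1.24 ± 0.14 (SE, adjusted p = 4.72e-05). Stat4, which carries signals of interleukin 12 and type I interferon, had a larger and more scattered difference. Stat4 had corrected log2 levels of 9.38, 8.60, 8.65 and 7.63 in neurofibroma macrophages and 3.69, 6.61 and 5.69 in wild-type macrophages. For Stat4 the fitted difference was 3.23 ± 0.79 (log2, SE, adjusted p = 0.00677). Stat4 was called on 3 scalings in only 2 of the 7 fits that left out 1 array. Ifng itself was at 3.35 to 3.56 in neurofibroma macrophages and 2.66 to 2.86 in wild-type macrophages, near the bottom of the scale, and did not reach the fold threshold.

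Chemokine genes gave 0 higher and 4 lower calls among 31 measured on 3 scalings, beside 0.789% and 0.906% of all genes, and 2 and 8 on corrected values, beside 3.3% and 2.93%. With the control pair in the fit 1 was lower. The lower count was 2 without wild-type replicate 5 or without array A, and 1 without replicates 5 and 6 together. There were 2 higher calls without replicate 6 and 1 without array D. Besides Ccl24 these were Cxcl1, which attracts neutrophils, Cxcl12, the ligand of Cxcr4, and Ccl6. For Cxcl1 the neurofibroma arrays gave 6.61, 6.78, 6.42 and 8.89 and the wild-type arrays 9.33, 9.96 and 9.78. Array D stood near the wild-type arrays. Cxcl1 had a log2 fold change of -2.52 ± 0.53 (SE, adjusted p = 0.00292). Cxcl12 and Ccl6 were lower by 1.65 and 1.50. Ccl2, the monocyte attractant, was at 10.42, 10.61, 10.98 and 10.71 in neurofibroma macrophages and 11.22, 11.58 and 11.60 in wild-type macrophages, below the fold threshold. Ccl5, which attracts T cells and monocytes, was higher by 1.61 on corrected values only, and Cxcl9 was lower by 3.22, also on corrected values only. Among 23 chemokine receptors Ccr2 was higher and Ccr3, the eotaxin receptor, was lower on 3 scalings, and 1 was higher and 2 were lower on corrected values. Ccr2 was at 8.50, 8.33, 8.22 and 7.61 in neurofibroma macrophages, against 6.95, 6.03 and 6.21 in wild-type macrophages. In neurofibroma macrophages Ccr3 measured 3.20, 3.93, 3.73 and 4.68, and in wild-type macrophages 6.09, 4.90 and 4.46. Without wild-type replicates 5 and 6 Ccr2 was no longer called, and Ccr3 was.

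Genes of lipid-associated macrophages and of phagocytosis gave 1 higher and 4 lower calls among 29 measured on 3 scalings, beside 0.789% and 0.906% of all genes, and 1 and 6 on corrected values, beside 3.3% and 2.93%. Without wild-type replicates 5 and 6 the counts were 0 and 3, and the higher call was also lost without replicate 5 or array A. Fabp4, a fatty acid-binding protein of macrophages and adipocytes, was among the lower genes. Fabp4 had corrected log2 levels of 6.19, 6.32, 6.78 and 6.49 in neurofibroma macrophages and 9.76, 10.17 and 9.54 in wild-type macrophages. Fabp4 thus differed by -3.38 ± 0.17 on the log2 scale (SE, adjusted p = 1.61e-07). Lpl, lipoprotein lipase, and Pparg, a nuclear receptor that responds to fatty acids, were lower as well. For Lpl the neurofibroma arrays gave 3.79, 4.74, 3.87 and 4.96 and the wild-type arrays 7.88, 7.04 and 6.27. Pparg was at 5.13, 6.18, 6.19 and 6.03 in neurofibroma macrophages, against 7.76, 6.58 and 6.72 in wild-type macrophages. This gave Lpl a log2 fold change of -2.73 ± 0.38 (SE, adjusted p = 0.000195). For Pparg the fitted difference was -1.14 ± 0.29 (log2, SE, adjusted p = 0.00889). Abca1, which exports cholesterol, was the higher one. In neurofibroma macrophages Abca1 measured 10.10, 9.49, 9.86 and 9.89, and in wild-type macrophages 8.81, 8.16 and 8.83. Abca1 had a log2 fold change of 1.24 ± 0.18 (SE, adjusted p = 0.000296).

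Phgdh, Psat1, Asns and Slc7a5 were named because their values were low in neurofibroma macrophages, and stand for no list. The enzymes Phgdh and Psat1 carry out steps of serine synthesis, Asns makes asparagine and Slc7a5 imports large neutral amino acids. Phgdh had corrected log2 levels of 3.47, 3.36, 3.26 and 3.35 in neurofibroma macrophages and 5.54, 4.83 and 5.19 in wild-type macrophages. For Asns the neurofibroma arrays gave 5.53, 5.40, 6.05 and 5.58 and the wild-type arrays 7.60, 7.55 and 7.50. No neurofibroma array of either gene reached a wild-type array. Phgdh thus differed by -1.82 ± 0.20 on the log2 scale (SE, adjusted p = 3.68e-05). This gave Asns a log2 fold change of -1.91 ± 0.15 (SE, adjusted p = 2.8e-06). Psat1 was lower by 1.50 and Slc7a5 by 1.45. All of them were called on 3 scalings, also with wild-type replicates 5 and 6 left out together.

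Some other higher genes, most of them named after their values were seen, are given singly. Gpr65 codes for a proton-sensing receptor, and Pde3b, Pde7b and Pde8a for phosphodiesterases that break down cyclic nucleotides. Gpr65 was at 10.43, 10.27, 10.17 and 9.69 in neurofibroma macrophages, against 7.39, 7.22 and 7.62 in wild-type macrophages. For Gpr65 the fitted difference was 2.73 ± 0.19 (log2, SE, adjusted p = 1.46e-06). The log2 fold changes of the phosphodiesterases were 2.03, 2.25 and 1.92. S1pr1, a receptor for sphingosine 1-phosphate that directs leukocyte exit from tissue, and Prkcb, a protein kinase C, were higher by 1.74 and 1.48. Ptpn6, the phosphatase SHP-1 that inhibitory receptors recruit, was higher by 1.66, and Hcls1 and Coro1a, which act on the actin cytoskeleton of blood cells, by 1.84 and 1.49. Vegfa, the growth factor for blood vessels, was at 8.96, 8.59, 9.05 and 8.40 in neurofibroma macrophages and at 6.70, 7.25 and 7.74 in wild-type macrophages. Vegfa had a log2 fold change of 1.52 ± 0.31 (SE, adjusted p = 0.00234). Mmp14, a membrane-bound matrix metalloproteinase, was higher by 1.37.

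**Figure D4:**
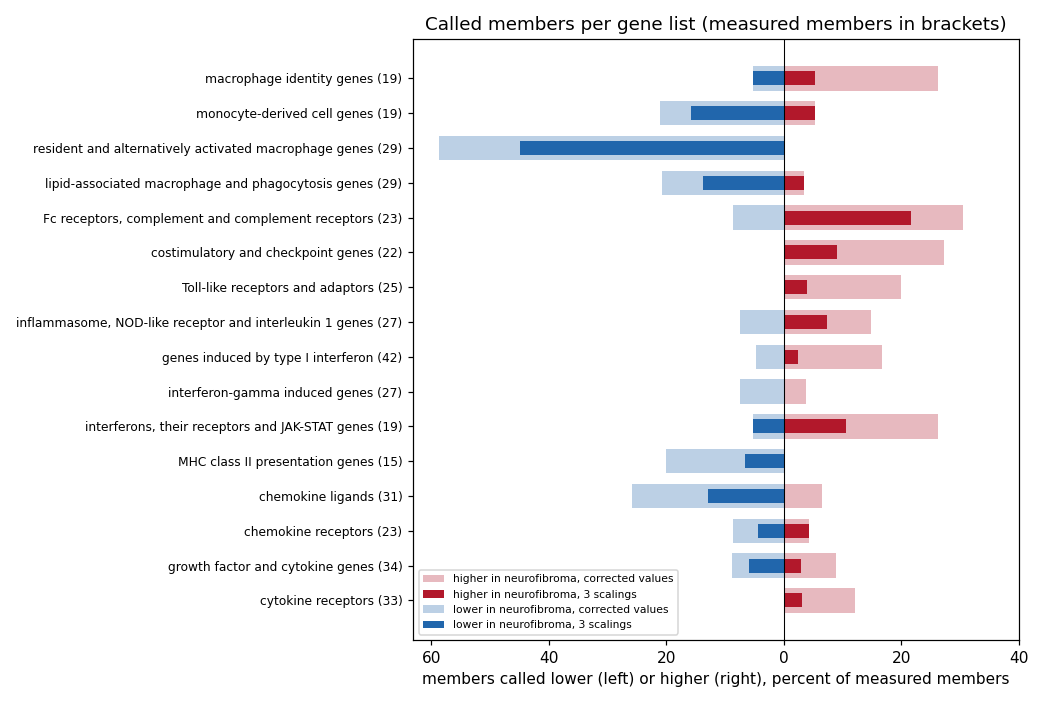
Percent of each list's measured members called lower (left) or higher (right) in neurofibroma macrophages, pale for corrected values and dark for 3 scalings. The Fc receptor and complement list counts Olfr48 in the place of C3. The resident and alternatively activated genes reach furthest to the left, with 17 and 13 of 29, beside 2.93% and 0.906% of all genes called lower.

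As a check of the label, the 19 measured macrophage identity genes had a mean corrected level of 9.23 to 9.35 in neurofibroma macrophages and 8.74 to 9.03 in wild-type macrophages. Of these genes Itgam was higher and Cd163 lower on 3 scalings, beside 0.789% and 0.906% of all genes. On corrected values 5 were higher and 1 was lower, beside 3.3% and 2.93%. The list's median log2 fold change was 0.51 on corrected, 0.49 on median-centred and 0.08 on quantile-normalized values. Adgre1 was at 9.83, 9.81, 9.82 and 10.16 in neurofibroma macrophages and 9.70, 9.05 and 9.44 in wild-type macrophages. Csf1r, the receptor for the macrophage growth factor, was at 8.82 to 9.27 in neurofibroma macrophages and 8.53 to 8.96 in wild-type macrophages and was not called. Chil3 and F13a1, counted above as lower in the resident and alternatively activated list, are also in the list of monocyte-derived cell genes. Monocyte-derived cell genes gave Ccr2 as higher and Chil3, F13a1 and Gpr141 as lower among 19 measured on 3 scalings, and 1 and 4 on corrected values. Over all genes 0.789% were higher and 0.906% lower on 3 scalings, and 3.3% and 2.93% on corrected values. The lower count of the monocyte-derived list on 3 scalings was 5 without wild-type replicate 4. Nf1 had a log2 fold change of 0.70 ± 0.15 (SE) and was not called, as the fold threshold was not reached. Xist and the Y-linked genes Kdm5d, Uty and Eif2s3y varied among the arrays of both groups and none was called.

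Lists of genes of other cells held lower calls as well, where 0.906% of all genes were lower on 3 scalings and 2.93% on corrected values. Of 20 measured fibroblast genes 0 were higher and 7 were lower on 3 scalings, and 11 were lower on corrected values. Their mean corrected level was 4.35 to 4.64 in neurofibroma macrophages and 5.92 to 6.42 in wild-type macrophages. In sorted pools fewer cells of a type and less RNA per cell cannot be told apart. Col1a2, a chain of collagen I, had the largest difference of the list. In neurofibroma macrophages Col1a2 measured 5.18, 5.43, 5.25 and 5.64, and in wild-type macrophages 9.85, 10.29 and 9.84. Col1a2 thus differed by -4.62 ± 0.52 on the log2 scale (SE, adjusted p = 4.53e-05). The 18 endothelial and mural genes gave 0 higher and 3 lower calls on 3 scalings and 6 lower calls on corrected values, with mean levels of 3.68 to 3.88 in neurofibroma macrophages and 4.23 to 5.28 in wild-type macrophages. The lower count of this list on 3 scalings was 5 without wild-type replicate 4 and 1 without replicate 5 or replicate 6. Of 21 Schwann cell genes 0 were higher and 2 were lower by either rule, and 1 was lower without replicate 5 or replicate 6, with mean levels of 4.08 to 4.43 in neurofibroma macrophages and 4.67 to 5.04 in wild-type macrophages. Fabp7, a fatty acid-binding protein of immature Schwann and satellite cells, was one of them. Fabp7 had corrected log2 levels of 3.58, 4.58, 4.06 and 4.61 in neurofibroma macrophages and 7.82, 9.80 and 9.49 in wild-type macrophages. The part of other cells' RNA in the lower macrophage genes was not tested. Cxcl12, Il33, Lyve1, Igf1 and Fabp4 are also made by fibroblasts or by cells of vessels or fat.

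Seminal vesicle genes stood apart in another way. Svs4 was at 2.52, 2.48, 2.59 and 2.59 in neurofibroma macrophages and at 2.92, 9.76 and 10.84 in wild-type replicates 4, 5 and 6. The mean level of the 10 measured genes was 2.24 to 2.40 in neurofibroma macrophages and 2.55, 5.05 and 7.30 in the wild-type replicates. Secretory transcripts of this gland were therefore present on 2 of 3 wild-type arrays. With both arrays left out, 1 wild-type array remained and its spread was taken from the other groups. Of the 174 higher and 133 lower genes then called on 3 scalings, 95 and 68 were among the 175 and 201 called with all arrays. The resident and alternatively activated list kept 10 of its 13 lower genes, namely Retnla, Mgl2, Ccl24, Lyve1, Cd163, Cbr2, Folr2, Igf1, F13a1 and Chil3. The fibroblast list kept 2 of 7, the Fc receptor and complement list 3 of 5, the endothelial and mural list 0 of 3 and the Schwann cell list 0 of 2. Of the 13 genes in the strictest set, 12 were still called, the exception being Gm7609.

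Single arrays decided the call on 3 scalings for some of the genes named above. It was lost without neurofibroma array A for Abca1, Bst2, Ccl6, Ccr3, Cxcl1, H2-DMb2, Pde7b, Pde8a, Pparg and Stat4. Array B decided it for Bst2, Cxcl1, H2-DMb2, Pde7b and Stat4, and array C for Coro1a, Cxcl1, H2-DMb2 and Stat4, while leaving out array D cost none of the named genes its call. Without wild-type replicate 4 the call was lost for Bst2, Ccr3, Coro1a, Igf1, Il1b, Il2ra, Pde7b, Phgdh, Pparg, Ptpn6 and Stat4. Replicate 5 decided it for Abca1, C4b, Cxcl1, Cxcl12, Fcgr3, H2-DMb2, Pde3b, Pde8a and Svs4, and replicate 6 for Bst2, Cxcl1, Fcna, H2-DMb2, Il2ra, Itgax, Pde7b, Stat4 and Svs4. Leaving out replicates 5 and 6 together also cost Ccl6, Ccr2, Cd209d, Fabp7, Fcgrt, Gm7609 and Ptpn6 their calls.

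**Figure D5:**
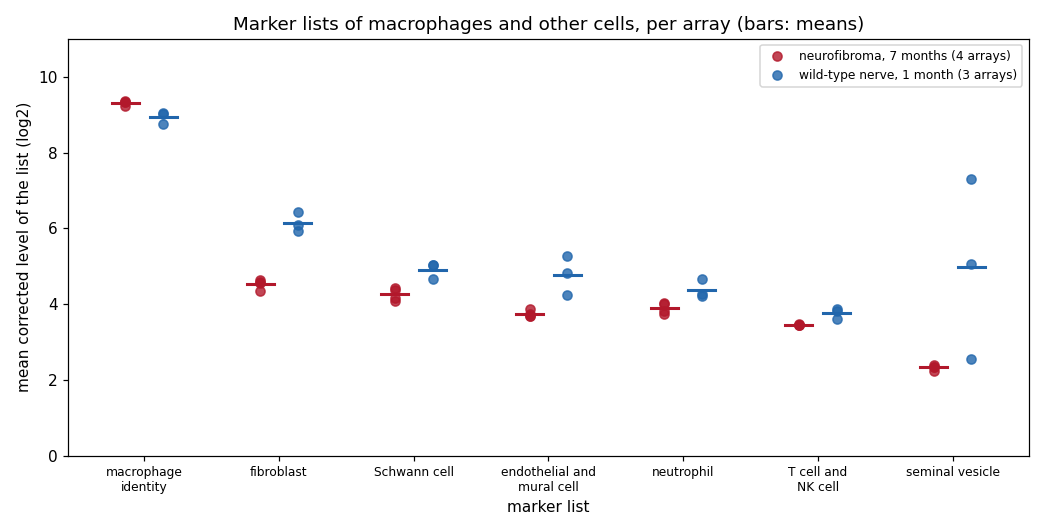
Mean corrected log2 level of macrophage identity genes and of marker lists of other cells on each neurofibroma array (red, left) and each wild-type array (blue, right), with group means as bars. Seminal vesicle genes are high on 2 of the 3 wild-type arrays, and fibroblast genes are higher on every wild-type array than on any neurofibroma array.

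Macrophages of 1-month-old Nf1fl/fl;DhhCre nerve were set beside these values as a description. Their 5 arrays carry the first batch in their labels and share age and array level with the wild-type arrays. All 5 arrays lay on the wild-type side of every neurofibroma array for 13 of the 13 genes in the strictest set. The same held for 142 of the 175 higher and 117 of the 201 lower genes on 3 scalings. The share over all genes was not counted. These sets were also chosen for large differences from wild-type arrays of the same age and array level, so the counts cannot be weighed. Retnla was at 9.11 to 10.62 on these arrays with a median of 9.71, and Mgl2 at 5.26 to 6.15 with a median of 5.66. Age and array level set both 1-month groups apart from neurofibroma, so this does not add a test of the tumour.

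An offset between array levels that is common to both cell types cancels when the macrophage difference is set against the Schwann cell difference, (MP neurofibroma minus wild type) minus (SC neurofibroma minus wild type), on deposited values. This contrast was past the thresholds for 488 genes (2.2%) in the higher and 196 (0.884%) in the lower direction, 3.08% of all genes. Of the genes called on 3 scalings it was called in the same direction for 68 of 175 higher and 52 of 201 lower ones. In the strictest set 11 of 13 genes were called, the exceptions being Gm7609 and Cep43. Both sets were chosen for large differences between the macrophage arrays that also enter this contrast. High shares are therefore in part built in and are no independent evidence. The macrophage difference minus the Schwann cell difference was -6.25 for Retnla (adjusted p = 2.91e-05), -2.93 for Cpne8 (adjusted p = 2.91e-05) and -2.51 for Mgl2 (adjusted p = 0.000117). Among the higher genes it was 2.52 for Gpr35, 2.36 for Gpr18, 2.35 for Sh2d1b1 and 1.93 for Tlr8, with adjusted p of 0.00298, 0.00183, 0.00191 and 0.00206. None of the 12 genes with the larger shift in the control pair was called. For Csn1s1 the contrast was -0.08.

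The macrophage genes named in the text of the study were followed as a list, which was chosen on these samples and is not independent evidence of its direction. Of 26 measured, 6 were higher and 2 were lower on 3 scalings, beside 0.789% and 0.906% of all genes, and 12 and 2 on corrected values, beside 3.3% and 2.93%. With the control pair in the fit 1 was higher. The higher count on 3 scalings was 4 without wild-type replicate 4, where Il1b and Stat4 lost their calls. The lower count was 1 without wild-type replicate 4 or array A, and without replicates 5 and 6 the counts were 5 and 2. The 6 higher genes were Il1b, Ccr2, Ifngr1, Vegfa, Tlr8 and Stat4, and the 2 lower ones were Ccr3 and Ifnb1. Csf2rb2, a receptor chain for interleukin 3, was at 10.00 to 10.32 in neurofibroma macrophages and 7.43 to 7.96 in wild-type macrophages on corrected values, but was not called on all 3 scalings. Il10, an anti-inflammatory cytokine, was at 6.64, 6.81, 8.06 and 6.86 in neurofibroma macrophages and 7.50, 8.28 and 8.17 in wild-type macrophages, with overlapping groups and no call.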

How the data were processed

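Total RNA of sorted cells was hybridised to Affymetrix Mouse Gene 2.0 ST arrays. The authors summarized probes by RMA in Affymetrix Expression Console (version 1.3.1.187, mm10) and deposited log2 values of 41345 transcript clusters, 23521 of them with 1 named gene here. The methods state a ComBat correction of 2 batches, and the deposited values still lay on 2 levels. For each of 22180 genes the cluster with the highest mean over sorted-cell arrays was kept, under symbols of GRCm38.p6.

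ComBat, written out in R (version 4.3.3), took the array level as batch and the 7 groups as covariates. limma (version 3.58.1) was fitted to the 3 macrophage groups with Benjamini-Hochberg adjustment over all genes, with 9 residual degrees of freedom. The number of arrays limits the precision. The steps were run on simulated data with a known array offset. The conditions for passing limited false calls for the fit with the control pair, but not on corrected values. The simulation is therefore no evidence that calls on corrected values are free of false ones.

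Members and gene lists were chosen with earlier results of these data known. The rule for named genes took the 15 largest changes in each direction that were called on corrected values and with the control pair and did not overlap, the 4 largest called changes of each list, the genes that the study names and the identity and sex-linked genes. The rule of 3 scalings, the other genes and the Stat6-type motif were chosen after the values were seen. Plots were drawn with matplotlib (version 3.10.9).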

Additional observations from a re-analysis of the deposited data

Results flagged for a closer look

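Among the 4 neurofibroma macrophage arrays, 1 array stood apart from the other 3 for 12 named genes and for 2 lists, of 241 groups of values examined. Chance sets apart about 1 in 20 such groups. Array D was the distant array for Cxcl1 (8.89, beside 6.42 to 6.78), for Adgre1 (10.16, beside 9.81 to 9.83), for S1pr1 (8.11, beside 7.58 to 7.65), for Slc15a1 (2.07, beside 1.94 to 1.95), for Pla2g1b (1.01, beside 1.14) and for the mean level of skeletal muscle and keratinocyte genes (3.46, beside 3.29 to 3.31). Array A was the distant one for Pparg (5.13, beside 6.03 to 6.19), Gpr132 (8.34, beside 7.62 to 7.72), Ackr2 (2.76, beside 3.20 to 3.26), Bmpr1b (2.61, beside 2.69 to 2.70) and Cd209b (2.61, beside 2.56). Array C was the distant one for Il10 (8.06, beside 6.64 to 6.86), Cd3e (2.16, beside 2.27) and the mean level of macrophage identity genes (9.23, beside 9.34 to 9.35).

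The macrophage difference, neurofibroma minus wild type, differed from that of Schwann cells by the test of the difference itself for 11 genes of the strictest set. The set was chosen for large macrophage differences, which are part of this test. The log2 difference between the cell types was 2.52 for Gpr35, 2.35 for Sh2d1b1, 2.36 for Gpr18, 1.54 for Gpr31b, 1.78 for Zbtb18 and 1.93 for Tlr8. It was -6.25 for Retnla, -2.93 for Cpne8, -2.51 for Mgl2, -1.76 for Ccl24 and -1.76 for S100a6.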

How the results depend on the processing

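The count of calls depended on the correction of the array levels. Higher and lower calls were 731 and 649 on corrected values, 36 and 10 with the universal control pair in the fit, 84 and 5747 with no correction, 1148 and 338 on median-centred values, and 335 and 601 on quantile-normalized values. With genes left out whose shift was larger in the control pair, 400 and 457 remained, and 175 and 201 were called alike on 3 scalings; both of these rules were chosen after seeing the data. All transcript clusters gave 2410 and 1312 calls, and the adjusted p without a fold threshold 3524 and 4340. ComBat of means only, 2 groups or 6 groups in the fit, a variance trend with a robust prior, a filter on low values and averaged clusters kept both counts within 1.5 times of the main ones. Leaving out each array in turn gave 695 to 882 higher and 587 to 836 lower calls on corrected values, and 152 to 211 and 144 to 272 on 3 scalings, of which 95 higher and 95 lower genes were called in all 7 fits. With wild-type replicates 5 and 6 left out together, 174 and 133 were called on 3 scalings.

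Directions turned for some named genes, most of them not called on 3 scalings. Spink1, Svs2 and Svs4 among them were called on 3 scalings. Skint9, Csn1s1, Ces1d, Cdhr2, Agtr2, Gm2663, 2900055J20Rik, Acaa1a, Mpped2 and Pla2g1b were also called with the control pair in the fit. With no correction the log2 fold changes were -0.79 for 2900055J20Rik, -0.71 for Agtr2, -0.51 for Bmpr1b, -0.39 for Cdhr2, -0.49 for Ces1d, -0.08 for Csn1s1, -0.99 for Epcam, -0.27 for Gm2663, -0.75 for Ifi204, -0.77 for Lepr, -0.39 for Pgam1, -0.90 for Rps15, -0.44 for Skint9 and -0.053 for Zbp1. Quantile normalization gave -0.069 for 2900055J20Rik, -0.11 for Agtr2, -0.12 for Bmpr1b, -0.067 for Ces1d, -0.25 for Epcam, -0.27 for Ifi204, -0.039 for Lepr, -0.079 for Rps15 and -0.15 for Skint9. Median centring gave 0.43 for Acaa1a, -0.088 for Epcam, 0.01 for Mpped2 and 0.23 for Pla2g1b. Without wild-type replicates 5 and 6, Spink1 was at 0.29, Svs2 at 0.34, Svs3b at 1.02 and Svs4 at 0.12. The cause was not tested.

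The groups compared share no replicate numbers. The label numbers of arrays C and D also occur on Schwann cell arrays. Deviations from the group means correlated at 0.05 and 0.11 for equal numbers and at 0.0054 and -0.0516 for unequal ones. So few pairs cannot decide whether equal numbers mark the same mouse. With the replicate block, the contrast between cell types gave 506 higher and 207 lower calls, beside 488 and 196 without it. It gave 597 and 251 on corrected values, and 365 to 475 and 150 to 204 with each array left out in turn.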

Other observations

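Other lists held few calls, where 0.789% of all genes were higher and 0.906% lower on 3 scalings. Of 23 cholesterol and fatty acid synthesis genes, 0 were higher and 1 was lower on 3 scalings, this being Scd1, a fatty acid desaturase, at 3.68, 3.72, 4.05 and 4.11 in neurofibroma macrophages and 5.54, 6.77 and 6.33 in wild-type macrophages. Of 29 cell cycle genes 1 was lower, Ube2c, which acts in mitosis, at 2.62 to 3.17 in neurofibroma macrophages and 4.35 to 5.47 in wild-type macrophages. Neutrophil genes gave S100a8 and Mmp8 as 2 lower calls among 15, with S100a8 at 4.74, 6.85, 6.16 and 5.60 in neurofibroma macrophages and 6.88, 7.64 and 7.98 in wild-type macrophages. Among 13 mast cell and eosinophil genes Hdc, which makes histamine, was higher, at 5.70, 4.92, 6.06 and 4.92 in neurofibroma macrophages and 3.47, 4.43 and 4.07 in wild-type macrophages. The mean level of that list was 2.88 to 3.04 in neurofibroma macrophages and 2.81 to 2.93 in wild-type macrophages. On corrected values these lists gave 0 higher and 2 lower, 1 and 2, 0 and 2, and 1 and 0 calls in the same order of lists, beside 3.3% and 2.93% of all genes. Without wild-type replicates 5 and 6 none of the 4 lower calls on 3 scalings remained, while Hdc was still called. The call of Mmp8 was also lost without replicate 4, and that of S100a8 without replicate 6. B cell genes gave no call among 13 measured by any of the 3 rules.

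Plet1 and Anxa1 were named after their values were seen. Plet1, which codes for a protein of epithelia and of some myeloid cells, was at 3.57, 3.93, 4.25 and 3.71 in neurofibroma macrophages and 6.92, 7.69 and 7.82 in wild-type macrophages. Anxa1, annexin A1, which dampens inflammation, was at 7.26, 7.04, 7.69 and 7.85 in neurofibroma macrophages and 9.21, 9.05 and 8.56 in wild-type macrophages. Both were called lower on 3 scalings in all 7 fits that left out 1 array.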
